A study of Homo sapiens with 6 samples.

Results

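OAS1, OAS2, OAS3, OASL, EIF2AK2 and ADAR encode effectors that act on double-stranded RNA. They were taken by symbol from the count table, which held 6 of these 6 genes among 29710, and 6 of the 16515 genes that passed the filter on low counts. The RNA came from MDA-MB-231, an established line of triple-negative breast cancer. One group carried an empty vector (NC, 3 biological replicates), and the other overexpressed SRPK2-FLAG (OE, 3 biological replicates), a tagged kinase of serine- and arginine-rich splicing factors. The labels give neither the promoter of the construct, nor whether the cells were a clone or a pool, nor the time after its delivery. The 6 genes were chosen with results of this same comparison in view, so their differences between the groups are given below as a description. Counts of those past a threshold are printed beside the share of all genes, and support nothing.

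Long double-stranded RNA is a signature of many viral infections and also forms from a cell's own transcripts. The oligoadenylate synthetases OAS1, OAS2 and OAS3 bind it and join ATP into short oligoadenylates (2-5A), which act as a second messenger in the cell. PKR, the product of EIF2AK2, binds it and phosphorylates the initiation factor eIF2, which lowers translation. ADAR edits adenosine to inosine in double-stranded RNA and so makes a cell's own transcripts less visible to these sensors. OASL is an OAS relative that lacks the synthetase activity and takes part in signalling from the RNA helicase RIG-I. Interferons induce these genes through a promoter element, the ISRE, to which a complex that holds STAT2 and IRF9 binds.

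Because several of the 6 genes differed in the same direction, the promoter letters around their starts were read for the ISRE. RefSeq's promoter windows (GRCh38.p14), which run from 250 bases before an annotated transcript start to 50 bases after it, held OAS1, OAS3, EIF2AK2 and ADAR, 4 of the 6 genes. The core of the ISRE, a repeat of GAAA and GAAA with any 2 bases between them, was searched on both strands. A stretch of 9 bases, AAACGAAAC, was added after the windows had been read, and it overlaps the repeat at each place where both occur. Capitals mark a match to either in the 3 windows that hold one, printed 5′ to 3′ on the gene's strand. The windows are chr12:112906712-112907011 (plus strand) for OAS1, chr12:112938224-112938523 (plus strand) for OAS3 and chr2:37156931-37157230 (minus strand) for EIF2AK2.
OAS1: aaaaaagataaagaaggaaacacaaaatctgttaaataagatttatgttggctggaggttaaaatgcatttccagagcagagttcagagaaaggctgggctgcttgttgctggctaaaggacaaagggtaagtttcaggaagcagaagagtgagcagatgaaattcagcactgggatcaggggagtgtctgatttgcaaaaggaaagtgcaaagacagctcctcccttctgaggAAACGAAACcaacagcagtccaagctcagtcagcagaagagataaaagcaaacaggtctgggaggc
OAS3: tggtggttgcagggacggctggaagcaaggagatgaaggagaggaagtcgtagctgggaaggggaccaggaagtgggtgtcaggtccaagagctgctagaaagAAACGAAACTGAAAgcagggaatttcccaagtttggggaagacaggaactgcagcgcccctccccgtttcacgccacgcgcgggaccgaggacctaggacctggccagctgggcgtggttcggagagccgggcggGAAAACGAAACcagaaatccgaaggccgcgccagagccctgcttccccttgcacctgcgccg
EIF2AK2: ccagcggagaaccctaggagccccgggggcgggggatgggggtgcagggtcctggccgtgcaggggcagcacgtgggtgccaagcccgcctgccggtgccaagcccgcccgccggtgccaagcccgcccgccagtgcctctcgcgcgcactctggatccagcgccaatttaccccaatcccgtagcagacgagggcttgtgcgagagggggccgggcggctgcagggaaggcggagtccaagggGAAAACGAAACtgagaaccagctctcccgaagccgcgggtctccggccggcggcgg

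The 9-base stretch stood close to the RefSeq transcript start that defines the window in all 3 windows. In OAS1 it ran from 16 to 8 bases before the start. OAS3 held it at 147 to 139 and again at 10 to 2 bases before the start, and 2 copies of the repeat overlapped these, one of them reading GAAACTGAAA. In EIF2AK2 the repeat began 6 bases before the start and ended on base 4 of the transcript, and the 9-base stretch began 4 bases before it. OAS1 had no match to the repeat. All these distances are from the RefSeq starts. The GENCODE gene limits begin further upstream, at 112906777 for OAS1, 112938352 for OAS3 and 37157065 for EIF2AK2. By those limits the OAS1 and EIF2AK2 matches and the nearer OAS3 matches lie inside the gene. Only the farther OAS3 matches lie before it. The 3 ADAR windows held neither motif, which says only that these letters are not in those windows.

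**Figure D1:**
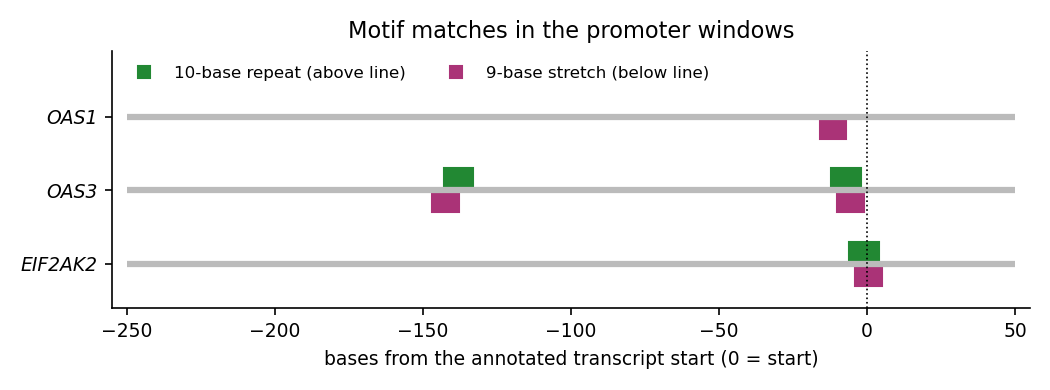
Positions of both motifs in the promoter windows of OAS1, OAS3 and EIF2AK2, as bases from the annotated transcript start on the x axis. Blocks above each line are matches to the 10-base repeat and blocks below it matches to the 9-base stretch. Each of the 3 genes has a match within 16 bases of the RefSeq start of its window.

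Across 34943 promoter windows of 300 bases, the repeat occurred in 3.57% and the 9-base stretch in 0.109%. Leaving out the 6 genes and SRPK2, 20 other tested genes held the 9-base stretch. Of these, 5 passed the edgeR threshold and were higher with SRPK2, namely DDX58, HERC5, MX1, RSAD2 and XAF1. The other 15 included the ubiquitin ligase gene TRIM25, which had a log2 fold change of 0.05. Of 463 tested genes with the repeat, again without those 7 genes, 13 passed and were higher (2.81%). These counts cover the 11394 tested genes with a promoter window. Of those without the repeat 0.275% passed and were higher, and of those without the 9-base stretch 0.334%, with none of the 7 genes left out. Over all 16515 tested genes, with or without a window, 0.381% passed and were higher. The median log2 fold change was 0.08 for the 20 genes, 0.03 for the 463, and 0.00 over all tested genes. A match is a stretch of letters and not a measured binding site. The stretch was added after reading windows of genes chosen on this same comparison, so nothing is read from these counts. A role of the ISRE in the differences was not tested.

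The libraries held between 31140537 and 36908878 reads assigned to genes. SRPK2 itself stood at 37.8, 36.7 and 41.1 CPM (reads scaled to library depth with TMM factors) in the controls and at 213, 248 and 294 CPM in the SRPK2 libraries. Gene totals do not separate the construct from the endogenous gene. Of 16515 genes 63 were higher and 12 lower at an edgeR adjusted p under 0.05, and without SRPK2 replicate 2 these counts were 551 and 852. That library stood apart in this respect from the other 5, whose omission left between 24 and 38 genes higher and between 3 and 13 lower. VIM, KRT8 and KRT18 stood at 3615, 646 and 529 CPM in the controls, while ESR1 and PGR, the hormone receptor genes, had means under 0.1 CPM, and ERBB2 stood at 47.1 CPM. The leukocyte markers summed to 76.8 to 81.4 CPM in the controls and 70.7 to 75.3 CPM with SRPK2, nearly all of it LAPTM5, with PTPRC at 0.17 and 0.19 CPM. Endothelial markers summed to 6.77 to 7.95 and 6.55 to 8.27 CPM. Fibroblast markers summed to 9.26 to 10.2 CPM in the controls and 12.04 to 13.1 CPM with SRPK2. This small sum moved with the group. All 5 tested fibroblast markers had positive log2 fold changes, and 0 passed the edgeR threshold. Mean LUM went from 2.45 to 3.50 CPM, COL1A1 from 3.66 to 4.69 CPM and PDGFRB from 1.71 to 2.27 CPM. COL3A1 and PDGFRA did not enter the test and had means under 0.1 CPM. The part of other cells in the results below was not tested, and in a bulk library fewer cells of a type and less RNA per cell cannot be told apart.

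All 6 genes were higher in the SRPK2 libraries, and for each of them the lowest SRPK2 library lay above the highest control. The size was graded. OAS1 was 1.76-fold higher, OAS2 and OAS3 were 1.35-fold higher, OASL 1.23-fold, ADAR 1.14-fold and EIF2AK2 1.11-fold. Of the 6, 3 passed the edgeR threshold over all genes (OAS1, OAS2 and OAS3) and 0 were lower, where 0.454% of all tested genes passed, 0.381% as higher and 0.0727% as lower. At an unadjusted p under 0.05 the same fit had 6 higher and 0 lower, and DESeq2 had 4 higher and 0 lower. Over all 16515 tested genes 2833 had an unadjusted p under 0.05 in either direction. DESeq2 called 86 genes higher and 46 lower across the transcriptome. Groups that did not overlap, with SRPK2 higher, made up 11.5% of all tested genes, and with SRPK2 lower 8.69%. The log2 fold change was above 0 in 51.2%. Since the genes were chosen on this comparison, nothing is read from these counts.

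**Figure D2:**
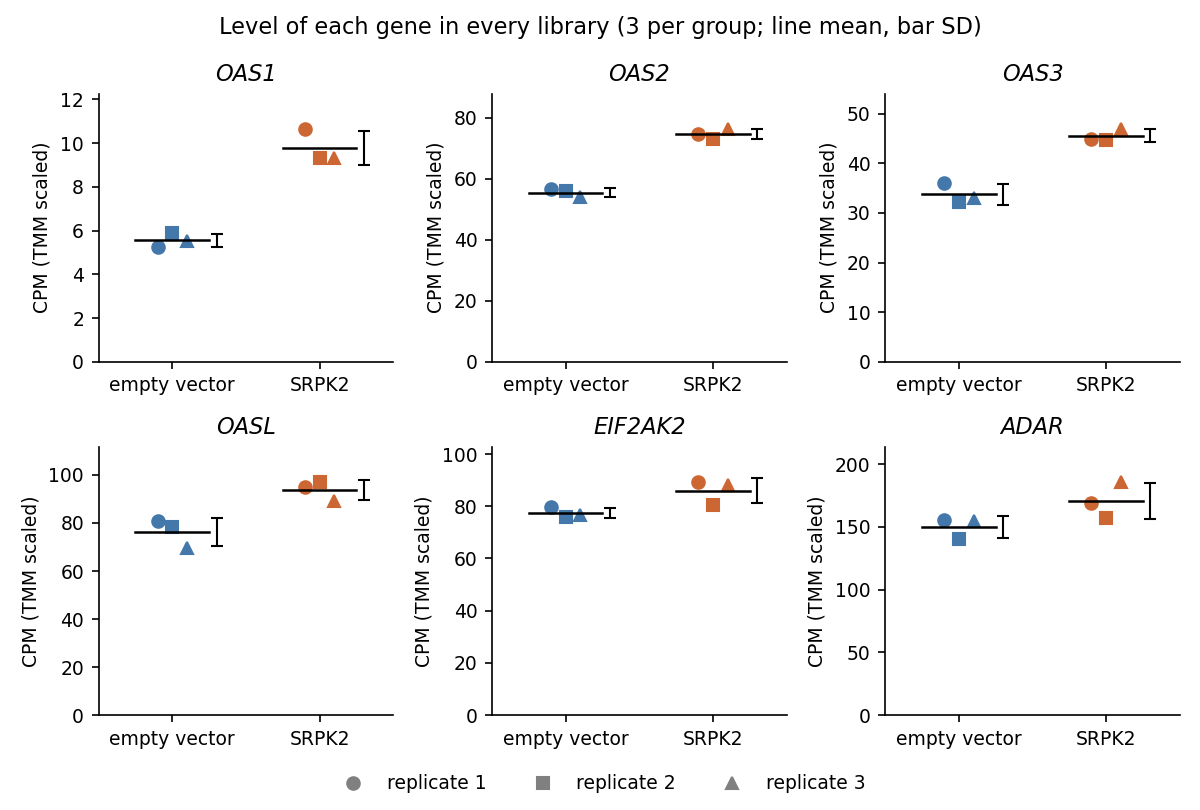
Level of each gene in CPM (y axis, from 0) in the 3 empty-vector and 3 SRPK2 libraries, 1 mark per library, with the group mean as a line and the SD as a bar. The groups are apart by a wide margin for OAS1, OAS2 and OAS3, and nearly touch for EIF2AK2 and ADAR, where SRPK2 replicate 2 lies just above the highest control.

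OAS1 lies on chromosome 12 from 112906777 to 112933222 (GRCh38, GENCODE 29, plus strand), with 11 annotated transcripts. It encodes the smallest synthetase, with a single catalytic unit. Its reads numbered 185, 191 and 202 in the controls and 334, 326 and 357 with SRPK2. Scaled, these were 5.26, 5.88 and 5.52 CPM against 10.7, 9.32 and 9.31 CPM. The lowest SRPK2 library was 1.58 times the highest control, by far the widest gap of the 6 genes. Means were 5.56 ± 0.31 and 9.77 ± 0.78 CPM (SD, n = 3 each), a log2 fold change of 0.81 (SE 0.09). OAS1 was also the gene with the fewest reads. Its spread between replicates, with a coefficient of variation of 5.61% and 7.96%, was near the 7.20% and 5.43% that counting alone gives at this number of reads.

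OAS3 and OAS2 follow OAS1 on the same strand, with 5129 bases between OAS1 and OAS3 and 5145 between OAS3 and OAS2. OAS3 (chromosome 12, 112938352 to 112973249) encodes the largest synthetase, which prefers long double-stranded RNA. Its level was 36.1, 32.2 and 32.9 CPM in the controls and 45.0, 44.6 and 47.0 CPM with SRPK2. Each SRPK2 library exceeded each control, by at least 1.24 times. The log2 fold change was 0.43 (SE 0.06), from 33.7 ± 2.08 to 45.5 ± 1.29 CPM (SD, n = 3 each).

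OAS2 (chromosome 12, 112978395 to 113011723) encodes the synthetase of intermediate size. Its level was 56.6, 56.2 and 53.9 CPM in the controls and 74.6, 73.1 and 76.5 CPM with SRPK2. OAS2 was the tightest of the 6 genes with SRPK2, and about level with EIF2AK2 (2.56%) in the controls. Its coefficient of variation was 2.55% in the controls and 2.28% with SRPK2, close to the 2.28% and 1.96% expected from counting. Its log2 fold change was 0.43 (SE 0.05), from 55.6 ± 1.42 to 74.8 ± 1.71 CPM (SD, n = 3 each). The neighbours OAS3 and OAS2 thus differed between the groups by nearly the same factor, while OAS1, the first gene of the cluster, differed by more. A gene on the opposite strand, RP1-71H24.1 (AC004551.1 in GENCODE 29), spans all 3 and shares exon bases with OAS1, and had between 0 and 1 reads in a library.

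OASL (chromosome 12, 121019111 to 121039242, minus strand) lies 8007388 bases further along the chromosome. It stood at 80.7, 78.2 and 69.6 CPM in the controls and at 94.9, 97.2 and 89.0 CPM with SRPK2. Control replicate 3 was the lowest of the 6 libraries. The groups were apart by 1.10 times, about the distance between the highest and lowest library within a group (1.16 and 1.09 times). The log2 fold change was 0.30 (SE 0.06), from 76.2 ± 5.84 to 93.7 ± 4.22 CPM (SD, n = 3 each).

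EIF2AK2 (chromosome 2, 37099210 to 37157065, minus strand) encodes PKR. Its level was 79.6, 75.9 and 76.6 CPM in the controls and 89.4, 80.4 and 88.1 CPM with SRPK2. SRPK2 replicate 2 was 1.01 times the highest control, so the groups barely separated. The log2 fold change was 0.15 (SE 0.06), from 77.4 ± 1.98 to 86.0 ± 4.84 CPM (SD, n = 3 each). With a correction for gene length it was 0.09. EIF2AK2 shares exon bases with GPATCH11 on the opposite strand, which had 684 to 968 reads and a log2 fold change of -0.03 (SE 0.06). How the counting treated strand is not known here, so reads of these 2 genes may not be fully separated.

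ADAR (chromosome 1, 154582057 to 154628013, minus strand) was the gene with the most reads of the 6, between 4554 and 7130 in a library. Its level was 155, 140 and 154 CPM in the controls and 169, 157 and 186 CPM with SRPK2. SRPK2 replicate 2 was again just above the highest control, at 1.01 times, and SRPK2 replicate 3 was clearly the highest. The log2 fold change was 0.19 (SE 0.07), from 150 ± 8.41 to 171 ± 14.6 CPM (SD, n = 3 each). It was 0.12 without SRPK2 replicate 3 or with a correction for gene length, and 0.24 without SRPK2 replicate 2. ADAR makes a long, interferon-inducible and a shorter, constitutive protein from separate starts, and gene totals do not separate them. Editing itself was not measured here.

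The 6 genes did not share one order of libraries within the SRPK2 group. Replicate 3 was the highest for OAS2, OAS3 and ADAR, replicate 1 for OAS1 and EIF2AK2, and replicate 2 for OASL. SRPK2 itself was highest in replicate 3 and lowest in replicate 1. OAS1 was nearly equal in replicates 2 and 3, at 9.32 and 9.31 CPM. In the controls replicate 1 was the highest for OAS2, OAS3, OASL, EIF2AK2 and ADAR, and replicate 2 for OAS1.

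Levels can be compared between genes only per length. In the authors' FPKM, which scales fragments by gene length and by depth, the control means were 11.0 ± 0.77 for ADAR, 10.8 ± 0.68 for OASL, 6.28 ± 0.19 for EIF2AK2, 4.43 ± 0.06 for OAS2, 1.67 ± 0.11 for OAS3 and 0.38 ± 0.02 for OAS1 (SD, n = 3 each). ADAR and OASL overlapped in both groups, and the other neighbours in this order did not overlap in the controls. The order depends on the length assigned to each gene. The length implied by the reads and the FPKM was 2.89 times the GENCODE 29 exon total for OAS1, 2.41 times for OAS3, 1.98 times for OAS2 and OASL, 1.39 times for ADAR and 1.13 times for EIF2AK2, against a median of 1.10 over 15918 genes. The deposited FPKM of the OAS genes is therefore low compared with a scale on that exon total.

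Per kilobase of the principal transcript in GENCODE 29, a length chosen after the FPKM had been seen, the control means were 23.3 CPM for OASL, 22.5 for ADAR, 15.4 for OAS2, 7.71 for EIF2AK2, 5.02 for OAS3 and 3.30 for OAS1. OAS2 then stood above EIF2AK2 in every library, the reverse of the FPKM order. With SRPK2 the means were 28.7 for OASL, 25.6 for ADAR, 20.7 for OAS2, 8.56 for EIF2AK2, 6.77 for OAS3 and 5.80 for OAS1. On both scales the catalytically inactive OASL was at a higher level than each of the 3 synthetases, and OAS1 was the lowest.

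**Figure D3:**
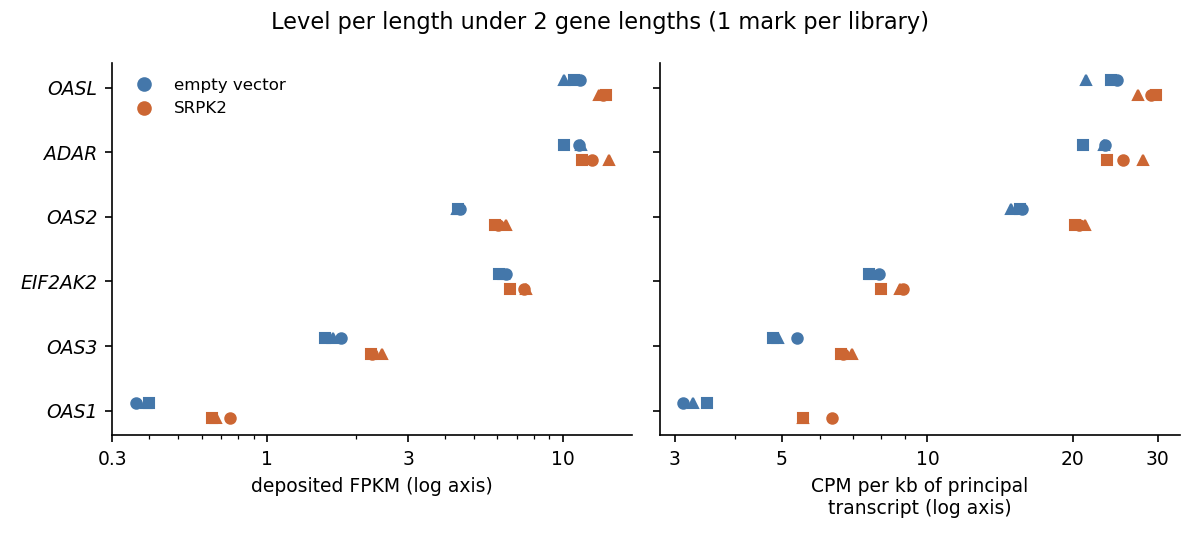
Level per length of the 6 genes in each library, as deposited FPKM (left) and as CPM per kilobase of the principal transcript (right), both on log axes. OAS1 is lowest on both scales, OASL and ADAR overlap, and OAS2 changes places with EIF2AK2 between the scales.

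The differences were positive for every gene under each of the 17 alternative settings. OAS1 ranged from 0.29 to 0.85 on the log2 scale, the low end coming from log2(FPKM + 1), which understates the change of a gene at this level, and with a pseudocount of 0.1 it was 0.71. OAS2 ranged from 0.36 to 0.47 and OAS3 from 0.31 to 0.48. OASL ranged from 0.24 to 0.34, ADAR from 0.12 to 0.24 and EIF2AK2 from 0.09 to 0.20. These ranges come from the libraries on which the genes were chosen, so their common sign is no independent support.

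**Figure D4:**
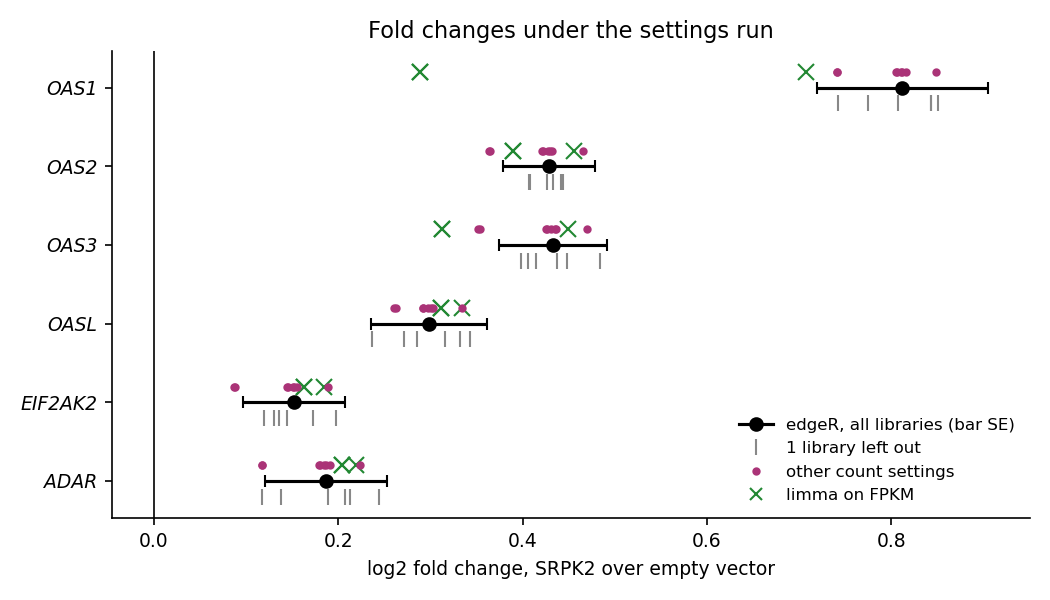
Log2 fold change of SRPK2 over empty vector for each gene (x axis), with the SE as a bar on the fit of all 6 libraries; other marks are the fits with 1 library left out, other count settings and limma on FPKM. All marks lie above 0, and OAS1 lies apart from the other genes except in log2(FPKM + 1), at 0.29.

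The partners of these enzymes were described through lists of pathway genes. Over 7 lists with 79 tested genes, edgeR called 3 higher and 0 lower (3.80% higher, where 0.381% of all tested genes did). At an unadjusted p under 0.05 there were 9 higher and 7 lower, and DESeq2 called 3 higher and 0 lower. Over all 16515 tested genes 2833 had an unadjusted p under 0.05 in either direction, and DESeq2 called 86 higher and 46 lower. The counts of each list below are to be read beside these. The median log2 fold change of the 79 genes was 0.01, beside 0.00 over all tested genes. The 3 that rose were the cytosolic RNA helicase sensors. Without SRPK2 replicate 2, 6 pathway genes passed as higher and 5 as lower, among them genes of the lists around PKR, ADAR and RNA binding. Of all 16772 genes tested in that fit, 551 passed as higher and 852 as lower. A block for the replicate number gave 11 pathway genes higher and 15 lower, where 1753 of all 16515 genes were higher and 2146 lower. Calls gained in either fit are therefore not read as a result about these lists.

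Among sensors and adaptors 3 of 11 rose and 0 fell. DHX58, which encodes the regulatory helicase LGP2, stood at 10.6, 10.4 and 10.4 CPM in the controls and 14.8, 14.8 and 14.9 CPM with SRPK2 (log2 fold change 0.50, SE 0.07, edgeR adjusted p = 0.00406). IFIH1, which encodes the long double-stranded RNA sensor MDA5, stood at 42.6, 40.3 and 41.9 against 54.4, 53.4 and 58.9 CPM (0.42, SE 0.06, edgeR adjusted p = 0.00424). DDX58, the gene of RIG-I, stood at 134, 137 and 137 against 171, 175 and 191 CPM (0.40, SE 0.05, edgeR adjusted p = 0.0045). These log2 fold changes were near those of OAS2 and OAS3. For all 3 sensors each SRPK2 library was above each control, which held for 11.5% of all tested genes. Of the 79 pathway genes 12 showed this and 7 showed the reverse, as 8.69% of all tested genes did. DDX58 missed the threshold without control replicate 1 (edgeR adjusted p = 0.0698), and both IFIH1 and DDX58 missed it in limma on log2(FPKM + 1) without a filter (limma adjusted p = 0.179). TLR3, the endosomal sensor, had 0.37 (SE 0.10, edgeR adjusted p = 0.146), and MAVS, the adaptor below RIG-I and MDA5, had -0.01 (SE 0.06).

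A list of 2-5A genes covers the steps that follow oligoadenylate synthesis. Of 6 tested, 0 passed in either direction (0 at an unadjusted p under 0.05, 0 by DESeq2), with a median of 0.03. ABCE1, a ribosome recycling factor, had -0.06 (SE 0.05, edgeR adjusted p = 0.578). PDE12, a phosphodiesterase that degrades oligoadenylates, had -0.03 (SE 0.05, edgeR adjusted p = 0.787), and its sign changed in 5 of the 17 alternatives.

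Around PKR, 0 of 18 regulators and eIF2 genes passed in either direction (0 higher and 4 lower at an unadjusted p under 0.05, 0 by DESeq2), with a median of -0.07 and 14 of 18 values negative. PRKRA, which encodes the PKR activator PACT, had -0.07 (SE 0.05, edgeR adjusted p = 0.537). EIF2S2, the beta subunit of eIF2, had -0.12 (SE 0.06, edgeR adjusted p = 0.288), and NPM1, a nucleolar protein that binds PKR, had -0.19 (SE 0.07, edgeR adjusted p = 0.228). Without SRPK2 replicate 2 NPM1 passed as lower, at -0.27 (edgeR adjusted p = 0.0291). It also passed as lower with no filter on low counts (edgeR adjusted p = 0.0178). With the block for the replicate number NPM1 and EIF2S2 passed as lower (edgeR adjusted p = 2.5e-06 and 0.00065). Transcripts known to follow eIF2 phosphorylation gave 0 of 11 past the threshold (0 higher and 2 lower at an unadjusted p under 0.05, 0 by DESeq2), with a median of -0.03. ATF4, the transcription factor of that response, had -0.12 (SE 0.06, edgeR adjusted p = 0.318) and DDIT4 had 0.09 (SE 0.05, edgeR adjusted p = 0.357). With the same block ATF4 passed as lower and DDIT4 as higher (edgeR adjusted p = 0.00083 and 0.0214). Phosphorylation of eIF2 and protein levels were not measured.

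Around ADAR, 0 of 4 tested genes of the editing and Z-RNA list passed (0 higher and 1 lower at an unadjusted p under 0.05, 0 by DESeq2). ADARB1, which encodes the second editing enzyme, stood at 13.8, 13.9 and 14.2 against 15.1, 14.0 and 16.5 CPM (log2 fold change 0.12, SE 0.07, edgeR adjusted p = 0.406). AIMP2, a scaffold of the tRNA synthetase complex known to lower ADAR protein levels, had -0.22 (SE 0.07, edgeR adjusted p = 0.185). It passed as lower without SRPK2 replicate 2, at -0.29 (edgeR adjusted p = 0.019). AIMP2 also passed as lower with no filter on low counts and with the block for the replicate number (edgeR adjusted p = 0.023 and 4.5e-05). ZBP1, the sensor of left-handed double helices that ADAR restrains, never exceeded 2 reads, so it did not enter the test. Of 15 other double-stranded RNA binding genes 0 passed (0 at an unadjusted p under 0.05, 0 by DESeq2), all with log2 fold changes between -0.15 and 0.05. G3BP1, a stress granule nucleator, had -0.09 (SE 0.05, edgeR adjusted p = 0.375). ILF2 had -0.15 (SE 0.07, edgeR adjusted p = 0.307), and passed as lower without SRPK2 replicate 2, at -0.23 (edgeR adjusted p = 0.0482). Both G3BP1 and ILF2 passed as lower with the block for the replicate number (edgeR adjusted p = 0.0124 and 4.5e-05).

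Of 14 genes listed for interferon signalling to the ISRE, 0 passed in either direction, and 0 by DESeq2. At an unadjusted p under 0.05 there were 5 higher and 0 lower. Their median was 0.15, and 11 of 14 values were positive. The list also holds genes that dampen the signal. Among these, SOCS1 (log2 fold change -0.30) and USP18 (0.51) gave its lowest and highest values. STAT2 stood at 60.0, 56.6 and 60.9 CPM in the controls and 70.0, 65.2 and 74.0 CPM with SRPK2 (log2 fold change 0.24, SE 0.06, edgeR adjusted p = 0.120). Its groups did not overlap, as for 11.5% of all tested genes with SRPK2 higher. IRF9 had few assigned reads, 22, 19 and 30 in the controls and 31, 25 and 35 with SRPK2, and differed by 0.35 on the log2 scale (SE 0.24, edgeR adjusted p = 0.456). Whether the gene models used for counting lost reads of IRF9 was not tested, so this count may not give its transcript level. Without SRPK2 replicate 2 STAT2 passed, at 0.28 (edgeR adjusted p = 0.0166). It also passed as higher with no filter on low counts and with the block for the replicate number (edgeR adjusted p = 0.0124 and 3.3e-06).

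**Figure D5:**
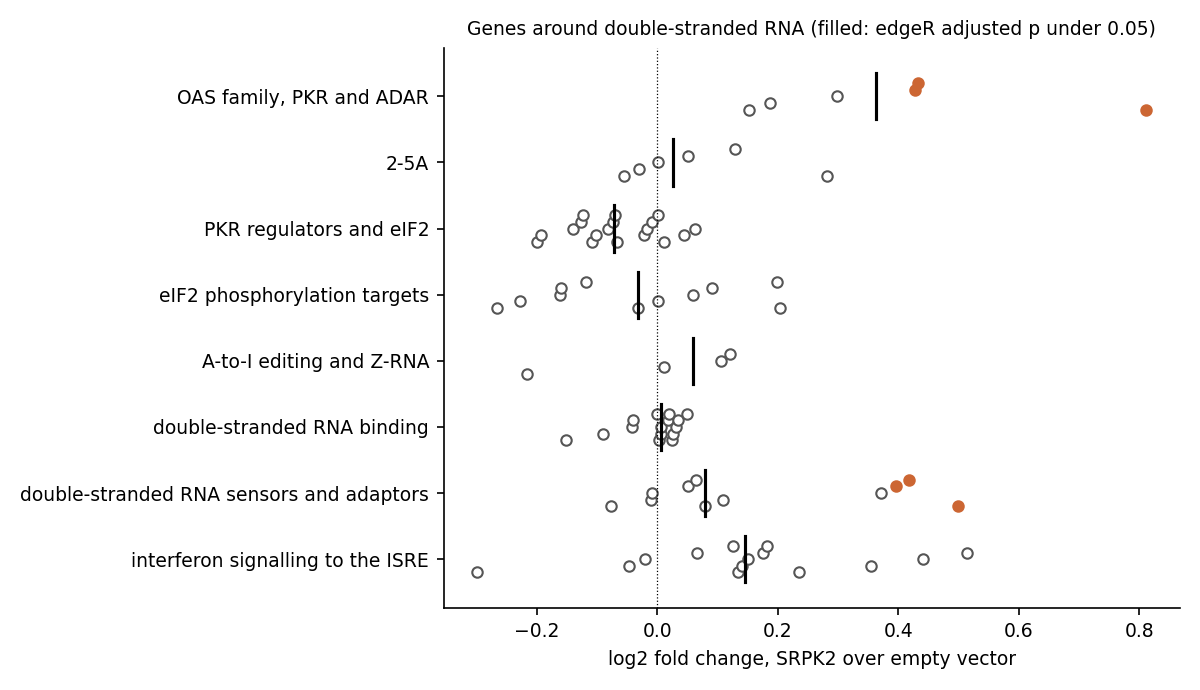
Log2 fold change of SRPK2 over empty vector (x axis) for each tested gene of the 6 and of the 7 pathway lists, 1 point per gene, filled where the edgeR adjusted p was under 0.05, with a line at each median. In this fit of all 6 libraries the filled points are 3 OAS genes and 3 sensors; 14 of the 18 PKR and eIF2 genes lie below 0.

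The genes whose pattern over the 6 libraries was most like that of the 6 genes were found by correlation with the mean of their standardised log2 CPM, among 12630 genes whose mean log2 CPM was 1 or more. XAF1, an interferon-induced regulator of apoptosis, came first (Pearson r = 0.998), followed by PLCG2, a phospholipase of receptor signalling, then ZNF211, STT3A, PPME1, L1CAM, ERCC6L and TINAGL1 (0.997 down to 0.991). These values describe 6 libraries that fall into 2 groups and share depth and scaling. XAF1 stood at 15.7, 13.8 and 13.9 CPM in the controls and 22.2, 19.5 and 22.5 CPM with SRPK2, PLCG2 at 14.2, 12.6 and 12.8 against 18.7, 16.9 and 18.7 CPM. In both, as in the mean of the 6 genes, control replicate 1 was the highest control and SRPK2 replicate 2 the lowest SRPK2 library. Both were picked for their correlation with that mean, so this likeness is no separate result. The 8 genes differed in the size of their difference between the groups: STT3A had a log2 fold change of 0.10 and XAF1 of 0.56. Between pairs of the 6 genes, which were chosen on these libraries, r ran from 0.49 for OASL with ADAR to 0.98 for OAS2 with OAS3.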

How the data were processed

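Data of 6 libraries of MDA-MB-231 RNA, 3 with an empty vector and 3 with SRPK2-FLAG, were grouped by their titles. The series' design text calls the replicates biological and the libraries strand-specific. The submitters' processing notes name bcl2fastq, FastQC, HISAT2 and GRCh38, without versions. For the counting software, its handling of strand and the gene models, the status is: not given in the sources used here.

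The authors deposited whole-number counts per gene, not normalized, and FPKM values rounded to 2 decimals. The main test was the two-sided quasi-likelihood test of edgeR 4.0.16 under R 4.3.3, after filterByExpr and TMM scaling, with the group as the only term and Benjamini-Hochberg adjustment over 16515 genes at a threshold of 0.05. An SE is the size of the log2 fold change divided by the root of its F statistic. Alternatives were RLE factors, library size alone, other filters, DESeq2 1.42.0, limma 3.58.1 on log2 FPKM, a block for the replicate number, a loess fit on gene length, and each library left out. Gene coordinates come from GENCODE 29, and promoters from RefSeq (GRCh38.p14), matched by symbol or current symbol (11394 tested genes). Pathway lists, markers and a rule named the genes (SRPK2, the 6 genes, set roles, up to 4 called or else the 2 most abundant per list, and the 8 most alike). Some genes picked by this rule are described only within their list. TLR3, MAVS, TRIM25, ZBP1, GPATCH11, SOCS1, USP18, LUM, COL1A1, PDGFRB and the other genes with the 9-base stretch were named after their values were seen. Some genes of the lists are counted there but not reported here by name. The 6 genes and all lists were chosen with earlier results of these data known. On counts simulated for this comparison over 16317 genes, 60% of 50 genes changed 1.25-fold, 88% at 1.5-fold and 100% at 2-fold and at 4-fold were called, with 14 unchanged genes called. The changed genes were drawn from those with a mean of at least 50 reads, so the rates do not cover genes such as IRF9. The simulated libraries held neither an effect of the replicate number nor an outlying library. Python 3.11.15 and matplotlib 3.10.9 drew the figures.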

Additional observations from a re-analysis of the deposited data

How the results depend on the processing

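The 6 genes kept positive log2 fold changes under all 17 alternatives, and the number of them past the threshold, 3 in the fit of all libraries, was 4 with DESeq2, library size alone or no filter on low counts. It was 1 in limma on log2(FPKM + 1) or log2(FPKM + 0.1) and 0 without the FPKM filter. It lay between 3 and 6 when 1 library was left out. Pathway genes higher with SRPK2 numbered 3, but 1 in limma without a filter, 6 with no filter on low counts (with 4 lower), and between 2 and 6 (with between 0 and 5 lower) when 1 library was left out. Both upper ends come from the fit without SRPK2 replicate 2, in which the pathway genes NPM1, AIMP2 and ILF2 passed as lower.

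Across the transcriptome 63 genes were higher and 12 lower. Leaving out 1 library gave 24 to 551 higher and 3 to 852 lower. The counts were 390 and 607 with no filter on low counts, 41 and 9 in limma on log2(FPKM + 1), 41 and 10 with a pseudocount of 0.1, and 13 and 5 without the FPKM filter. There were 46 lower with DESeq2, 28 with the length correction and 5 at a mean CPM of at least 5. The cause of these differences was not tested.

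The replicate number is shared between the groups. Deviations from the group mean correlated positively for libraries of like number (0.08, 0.23 and 0.17), against -0.17 to 0.00 for unlike numbers. The labels do not call the numbers pairs, so the main fit did not take them as pairs. Whether like-numbered libraries were handled together was not tested. Each library correlated best with its own number, a hint from the data and not from the design. With the replicate block 1753 genes were higher and 2146 lower, 6 of the 6 genes and 11 pathway genes passed as higher, and 15 pathway genes as lower. With the length correction and the block these counts were 1070, 2292, 6, 11 and 19. In both fits the lower pathway genes included NPM1, EIF2S2, ATF4, AIMP2, G3BP1 and ILF2, and the higher ones included STAT2 and DDIT4. PDE12 turned from -0.03 to 0.0061 with library size alone, 0.0073 in limma on log2(FPKM + 1) with or without the filter and 0.0081 with a pseudocount of 0.1, and lay between -0.0499 and 0.0071 when 1 library was left out, positive without control replicate 3. At 185 to 357 reads in a library OAS1 was limited by counting error, and IRF9 more so.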
